A study of Mus musculus with 16 samples.

Results

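The mRNAs described here are those of the 4 adult haemoglobin genes of the C57BL/6 mouse, Hba-a1, Hba-a2, Hbb-bs and Hbb-bt, and of Alas2, the erythroid enzyme of haem synthesis, measured in skeletal muscle. These 5 genes were found by gene name among the 23235 gene names of the mRNA table, and their counts were summed over the transcripts of each name. RNA was taken from skeletal muscle of 16 male C57BL/6J mice (strain C57BL/6 in the labels) that entered the study at 6 weeks of age, with 4 mice in each of 4 groups and 1 library per mouse, so replicates are mice. The control group received a normal diet. The HFD group received a high-fat diet with 60% fat, which was given for 8 weeks to induce insulin resistance, and the HFD + RSV and HFD + metformin groups received the same diet and then resveratrol (RSV), a plant polyphenol, or metformin, a glucose-lowering drug, for 6 weeks. The labels name no genetic change in any group, and the muscle that was sampled and the dose of metformin are not given in the sources used here. The identifiers of the 4 HFD mice share a leading number that no other mouse carries, and any factor marked by that number cannot be told apart from the group. Control mice 1, 2 and 3 and HFD + RSV mice 1 and 2 share another leading number, as do HFD + metformin mouse 2 and HFD + RSV mouse 4, and what the numbers mark is not given.

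Haemoglobin carries oxygen in red blood cells as a tetramer of paired alpha-like and beta-like chains, each with a haem group. Erythroid precursors in bone marrow and spleen transcribe the globin genes together with Alas2, which makes the first precursor of haem in these cells, whereas Alas1 makes it in other tissues. In rodents, reticulocytes in blood keep part of this mRNA after the nucleus is lost, and myoglobin (Mb) is the oxygen-binding globin of the muscle fibre itself. In bulk muscle RNA, fewer cells of a type and less RNA per cell cannot be told apart, and blood within the vessels is homogenised with the tissue. The methods describe blood collection by cardiac puncture before the muscles were taken, and whether the animals were perfused is not given in the sources used here.

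On GRCm38, Hba-a1 (ENSMUSG00000069919) lies at chr11:32283511-32284465 and Hba-a2 (ENSMUSG00000069917) at chr11:32296489-32297298, both on the plus strand. Hbb-bs (ENSMUSG00000052305) lies at chr7:103826534-103828096 and Hbb-bt (ENSMUSG00000073940) at chr7:103812524-103813996, both on the minus strand, and Alas2 (ENSMUSG00000025270) lies at chrX:150547375-150570638 on the plus strand. The 12 transcripts of the 5 genes in the mRNA table all have the coordinates of GENCODE M21. Within each globin pair the coding sequences are nearly the same, and the stretches below are shown because the single base that separates each pair is what tells their reads apart inside the coding exons. The stretches lie in the last coding exon, are from GENCODE M21 transcripts, run 5′ to 3′ on the coding strand, and have the differing base in capitals.

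Hba-a1: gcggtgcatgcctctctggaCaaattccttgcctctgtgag
Hba-a2: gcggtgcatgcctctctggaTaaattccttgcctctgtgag
Hbb-bs: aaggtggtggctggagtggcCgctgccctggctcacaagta
Hbb-bt: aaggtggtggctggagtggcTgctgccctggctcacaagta

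The coding sequences of Hba-a1 and Hba-a2 are 429 bases long and differ only by C381T, with positions counted from 1 at the first base of the start codon and the base of Hba-a1 first. Those of Hbb-bs and Hbb-bt are 444 bases long and differ only by C417T, with the base of Hbb-bs first. Both substitutions are at base 3 of a codon. The stretches shown are chr11:32284323-32284363 for Hba-a1, chr11:32297140-32297180 for Hba-a2, chr7:103826672-103826712 for Hbb-bs and chr7:103812663-103812703 for Hbb-bt. The longest run without a difference is 380 coding bases in the alpha pair and 416 in the beta pair, so the division of reads within each pair depends on the counting, and the summed counts of each pair are less affected by it.

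The upstream regions of the globin genes also share short motifs, and they are shown as background. Whether these motifs bear on the levels measured here was not tested. Of the RefSeq promoter windows (GRCm38.p6), the 250 bases upstream of the transcription start were searched on both strands for GATAA (letters bound by GATA factors), CACCC (bound by KLF factors), CCAAT (bound by the factor NF-Y) and TATAA (bound by the TATA-binding protein). The capitals below mark these letters on either strand. The first sequence is chr11:32296242-32296488 on the plus strand, which ends before the first base of any Hba-a2 transcript. The other sequences are 30 bases from chr7:103827995-103828024 and chr7:103813989-103814018 on the minus strand, which hold CACCC and CCAAT at similar distances from the start of each beta gene.

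Hba-a2: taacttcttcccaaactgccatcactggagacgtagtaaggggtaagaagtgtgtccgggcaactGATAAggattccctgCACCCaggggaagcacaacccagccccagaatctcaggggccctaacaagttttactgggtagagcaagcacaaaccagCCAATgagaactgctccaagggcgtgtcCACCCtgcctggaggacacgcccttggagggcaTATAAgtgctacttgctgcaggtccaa
Hbb-bs: gagccaCACCCtggtaagggCCAATctgct
Hbb-bt: gggtaaCACCCtggcATTGGCCAATctgct

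All 4 globin windows hold each of the 4 motifs, and the window of Hba-a1 is the same as that of Hba-a2 over 247 bases. In Hba-a2, GATAA starts 185 bases upstream of the start site, CCAAT 91 bases and TATAA 30 bases, and CACCC is found at 170 and 63 bases. The window of Alas2 holds 3 of the 4 motifs but not the letters CCAAT, and its pair of TATAA matches overlap on opposite strands. These matches start 208 and 207 bases upstream of the start site, and GATAA starts 86 bases upstream, so the layout of Alas2 differs from that of the globins. Among 32851 promoter windows of the same length, GATAA is found in 22.6%, CACCC in 52%, CCAAT in 33.8% and TATAA in 22.8%.

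The mRNA table held 17625909 to 29761026 counts per mouse, 15364 genes passed the filter on low counts, including all 5 genes, and the TMM factors ranged from 0.894 to 1.19. Muscle mRNAs were abundant, with a mean of 10130 FPKM for Acta1 (skeletal alpha-actin), 7340 FPKM for Atp2a1 (calcium pump) and 6802 FPKM for Myh4 (fast myosin heavy chain). The extraction text among the labels speaks of retinas, but Gnat1 (rod transducin) and Rcvrn (recoverin) had at most 2 counts each in any mouse. The 4 haemoglobin genes took 0.0326% to 0.162% of the counts per mouse.

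The haemoglobin mRNAs were among the more abundant mRNAs of the muscle, whereas Alas2 was not. By mean FPKM over 16 mice, Hba-a1 ranked 97th of 23235 genes with 304 FPKM, Hbb-bt 119th with 252 FPKM and Hbb-bs 128th with 237 FPKM. Hba-a2 ranked 710th with 55.1 FPKM, and Alas2 ranked 7540th with 4.61 FPKM. The ranks of the globin genes depend on how shared reads were divided within each pair. Myoglobin had 703 FPKM on the same scale.

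Hba-a1 encodes alpha globin and had the highest measured level of the 5 mRNAs. Over 538 aligned bases, the main transcripts of Hba-a1 and Hba-a2 differ at 1 base, so their separate levels depend on the counting. CPM are counts scaled to the library size and a TMM factor. The TMM-scaled CPM of Hba-a1 in mice 1 to 4 were 135, 249, 310 and 175 in control mice and 136, 173, 135 and 130 in HFD mice. They were 189, 510, 185 and 240 in HFD + RSV mice and 351, 213, 497 and 184 in HFD + metformin mice. The 4 HFD mice and control mouse 1 had the 5 lowest values, and HFD + RSV mouse 2 and HFD + metformin mouse 3 had the highest. In FPKM, the means of Hba-a1 were 290 ± 122 in control mice, 169 ± 18.2 in HFD mice, 347 ± 199 in HFD + RSV mice and 413 ± 231 in HFD + metformin mice (SD, n = 4). No HFD mouse overlapped with a mouse of either treated group.

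Hba-a2, the neighbouring alpha globin gene, was measured at a lower level. The TMM-scaled CPM of Hba-a2 in mice 1 to 4 were 18.4, 36.4, 44.3 and 22.7 in control mice and 21.03, 27.9, 20.8 and 18.7 in HFD mice. They were 29.6, 64.3, 23.7 and 34.3 in HFD + RSV mice and 44.6, 26.9, 74.5 and 27.1 in HFD + metformin mice. Here HFD mouse 2 overlapped with both treated groups, and control mouse 1 was the lowest of the 16 mice. In FPKM, the means of Hba-a2 were 52.3 ± 23.6 in control mice, 34.3 ± 4.45 in HFD mice, 60.4 ± 28.7 in HFD + RSV mice and 73.6 ± 46.3 in HFD + metformin mice (SD, n = 4).

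Hbb-bs and Hbb-bt encode the beta globins of this haplotype. The TMM-scaled CPM of Hbb-bs in mice 1 to 4 were 91.2, 160, 236 and 135 in control mice and 95.2, 127, 96.98 and 83.00 in HFD mice. They were 131, 330, 136 and 151 in HFD + RSV mice and 245, 144, 379 and 129 in HFD + metformin mice. All HFD values of Hbb-bs were below all values of both treated groups, and control mouse 1 lay within the HFD range. In FPKM, the means of Hbb-bs were 230 ± 106 in control mice, 131 ± 18.8 in HFD mice, 257 ± 137 in HFD + RSV mice and 331 ± 204 in HFD + metformin mice (SD, n = 4).

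The TMM-scaled CPM of Hbb-bt in mice 1 to 4 were 107, 201, 276 and 160 in control mice and 104, 142, 115 and 127 in HFD mice. They were 155, 419, 155 and 197 in HFD + RSV mice and 278, 176, 420 and 152 in HFD + metformin mice. The HFD group again did not overlap with either treated group for Hbb-bt, and it overlapped with the control group through control mouse 1. In FPKM, the means of Hbb-bt were 246 ± 111 in control mice, 143 ± 20.4 in HFD mice, 283 ± 162 in HFD + RSV mice and 337 ± 194 in HFD + metformin mice (SD, n = 4).

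Alas2 had about 86 to 541 counts per mouse, which is far below the globins but above the filter in every mouse. The TMM-scaled CPM of Alas2 in mice 1 to 4 were 5.50, 9.46, 14.1 and 7.90 in control mice and 5.45, 7.48, 5.17 and 3.95 in HFD mice. They were 7.83, 20.4, 7.45 and 8.94 in HFD + RSV mice and 12.9, 8.73, 22.9 and 6.79 in HFD + metformin mice. HFD mouse 2 lay above HFD + RSV mouse 3 and HFD + metformin mouse 4, so the HFD group overlapped with both treated groups. In FPKM, the means of Alas2 were 4.65 ± 2.00 in control mice, 2.46 ± 0.546 in HFD mice, 5.09 ± 2.84 in HFD + RSV mice and 6.22 ± 4.07 in HFD + metformin mice (SD, n = 4).

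**Figure D1:**
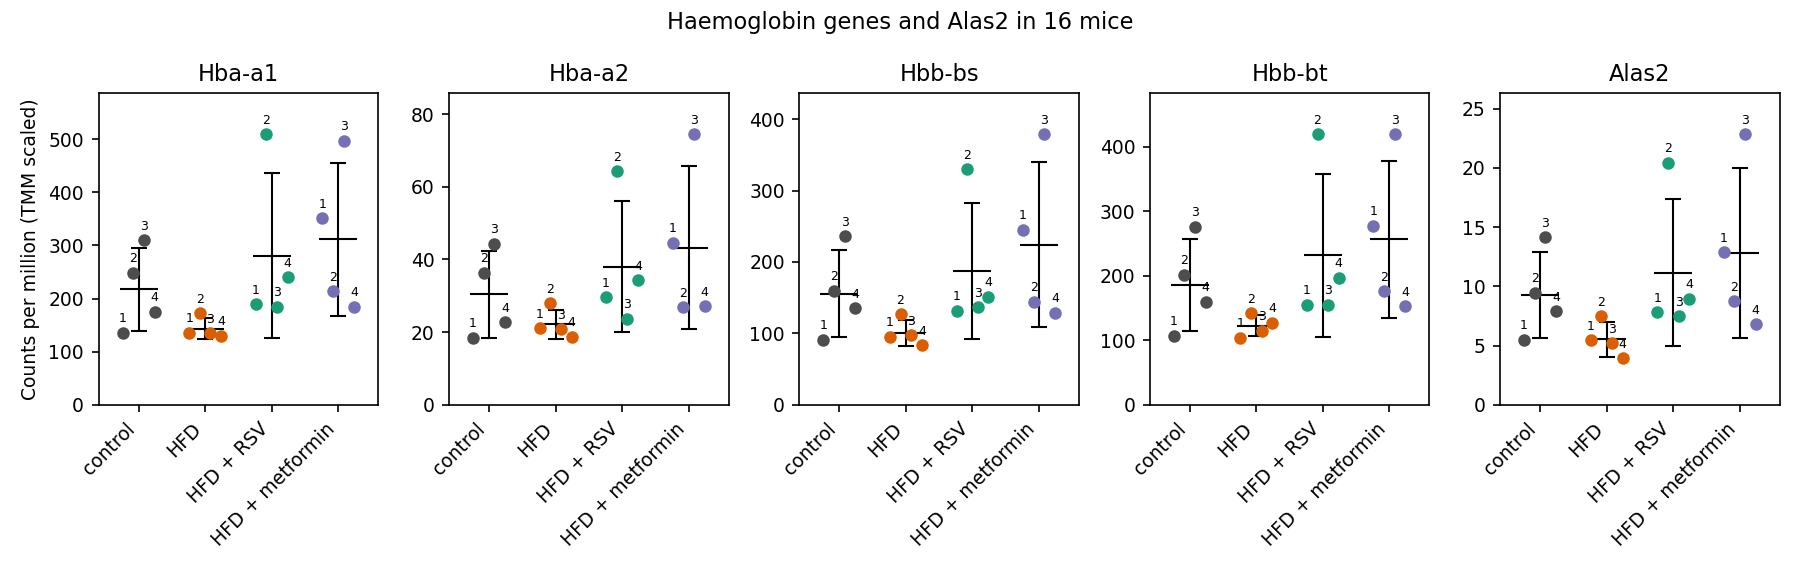
TMM-scaled CPM (linear axes from 0) of each gene in the 16 mice. Each point is a mouse with its number, the horizontal line is the group mean, and the bar is ± 1 SD (n = 4). HFD + RSV mouse 2 and HFD + metformin mouse 3 are the highest in each panel, and the 4 HFD mice lie close together at the lower end.

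The HFD group was compared with the control group for a difference that goes with the diet. The log2FC was -0.60 for Hba-a1 (SE 0.37), -0.46 for Hba-a2 (SE 0.38), -0.63 for Hbb-bs (SE 0.38), -0.61 for Hbb-bt (SE 0.38) and -0.75 for Alas2 (SE 0.42). All 5 values were negative, and 0 of 5 genes passed an adjusted P of 0.05 in edgeR's quasi-likelihood test (Benjamini-Hochberg over all genes tested), where 2.43% of all 15364 genes did. The adjusted P ranged from 0.284 for Alas2 to 0.472 for Hba-a2, no unadjusted P was below 0.05 (24.2% of all genes), and DESeq2 and limma also called 0 of 5. The exact two-sided permutation test of 4 mice against 4, which was run 30 times over the 5 genes and 6 comparisons without adjustment and whose smallest possible P is 0.0286, gave 0.0571 for Alas2 and 0.286 for Hba-a2. Control mouse 1 lay within or below the HFD range for each of the 5 genes, so 0 of 5 genes had groups that did not overlap, where 18.3% of all genes did. The log2FC ranged from -0.93 for Alas2 to -0.64 for Hba-a2 without control mouse 1. Without control mouse 3, the highest of the controls, it ranged from -0.23 for Hba-a2 to -0.47 for Alas2. The median log2FC over all genes tested was -0.02.

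The HFD + RSV group was compared with the HFD group for a difference that goes with resveratrol. The log2FC was 0.97 for Hba-a1 (SE 0.37), 0.78 for Hba-a2 (SE 0.38), 0.90 for Hbb-bs (SE 0.38), 0.92 for Hbb-bt (SE 0.38) and 1.02 for Alas2 (SE 0.42). In edgeR's test, 0 of 5 genes passed the adjusted P of 0.05 (adjusted P 0.999 for each), and 0% of all genes did. The unadjusted P was below 0.05 for 4 of 5 genes, from 0.0197 for Hba-a1 to 0.0334 for Hbb-bs, and it was 0.0572 for Hba-a2, while 4.72% of all genes had an unadjusted P below 0.05. DESeq2 and limma called 0 of 5. For Hba-a1, Hbb-bs and Hbb-bt, every HFD + RSV mouse was above every HFD mouse (exact permutation P = 0.0286 for each, the smallest that 4 against 4 can give), and 4.2% of all genes had groups that did not overlap. HFD + RSV mouse 2 carried much of the size of the difference. Without it, the log2FC ranged from 0.40 for Hba-a2 to 0.55 for Alas2.

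The HFD + metformin group was compared with the HFD group for a difference that goes with metformin. The log2FC was 1.12 for Hba-a1 (SE 0.37), 0.97 for Hba-a2 (SE 0.38), 1.16 for Hbb-bs (SE 0.38), 1.07 for Hbb-bt (SE 0.38) and 1.21 for Alas2 (SE 0.42). In edgeR's test, 0 of 5 genes passed the adjusted P of 0.05, which ranged from 0.600 to 0.618, and 0.013% of all genes passed. The unadjusted P was below 0.05 for all 5 genes, from 0.00893 for Hbb-bs to 0.0223 for Hba-a2, where 8.02% of all genes had such a P. DESeq2 and limma called 0 of 5. Every HFD + metformin mouse was above every HFD mouse for Hba-a1, Hbb-bs and Hbb-bt (exact permutation P = 0.0286 for each), and 3.72% of all genes had groups that did not overlap. Without HFD + metformin mouse 3, the log2FC ranged from 0.57 for Hba-a2 to 0.80 for Hba-a1. The HFD mice enter this comparison, the one with RSV and the one with the control group, so the 3 comparisons are not independent of each other. The 5 genes are not independent either, because their levels rose and fell together and the genes of each globin pair share reads. Adjusted over its 30 runs (Benjamini-Hochberg), the exact permutation test had a smallest P of 0.143.

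With the cut-offs of the study's methods, P below 0.05 and an absolute log2FC above 1, applied here to the unadjusted P, 1 of 5 genes was called in HFD + RSV versus HFD mice (Alas2), where 1.08% of all genes were called. In HFD + metformin versus HFD mice, 4 of 5 were called (Hba-a1, Hbb-bs, Hbb-bt and Alas2), where 1.76% of all genes were called. In HFD versus control mice, 0 of 5 were called, where 4.94% of all genes were.

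Against the control group, the treated groups had higher means for each of the 5 genes, and the differences were within the spread between mice. The log2FC ranged from 0.27 to 0.37 in HFD + RSV versus control mice, from 0.46 to 0.53 in HFD + metformin versus control mice and from 0.15 to 0.26 in HFD + metformin versus HFD + RSV mice. In edgeR's test, 0 of 5 genes were called and none had an unadjusted P below 0.05 in these 3 comparisons, where 0.00651%, 0% and 0% of all genes passed the adjusted P of 0.05 and 15.8%, 9.5% and 4.68% had an unadjusted P below 0.05, and DESeq2 and limma called 0 of 5. Among the mice that share a leading number, the values of control mice 1, 2 and 3 and of HFD + RSV mice 1 and 2 overlapped for each of the 5 genes. Without HFD + RSV mouse 2, the sign of all 5 log2FC against the control group turned (-0.20 for Alas2 to -0.06 for Hba-a2). Without HFD + metformin mouse 3, the sign of all 5 turned against the HFD + RSV group (-0.25 for Alas2 to -0.12 for Hbb-bs). The single test of any difference among the 4 groups gave an unadjusted P of 0.0449 for Hba-a1 and 0.0536 to 0.106 for the others in edgeR, with adjusted P from 0.312 to 0.42, so 0 of 5 were called, where 0.117% of all genes were and 15.4% had an unadjusted P below 0.05.

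**Figure D2:**
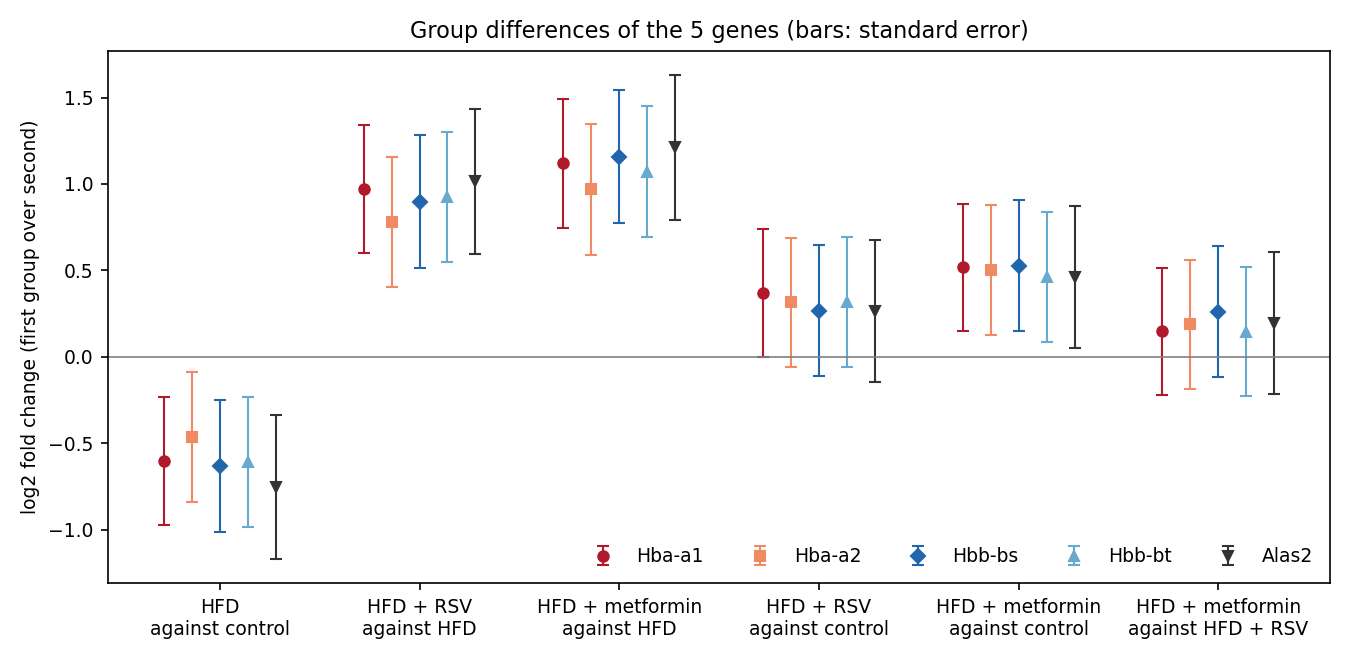
log2 fold change of the 5 genes (points) in the 6 pairwise comparisons, with bars of ± 1 standard error from the quasi-likelihood fit to 16 mice. The values lie below 0 in HFD versus control mice and between 0.78 and 1.21 in both treated groups against the HFD group, and the 5 genes lie within one standard error of each other in each comparison.

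The single mice spanned a wider range than the group means. The summed CPM of the 4 haemoglobin genes was 1370 in HFD + metformin mouse 3, 1323 in HFD + RSV mouse 2, 918 in HFD + metformin mouse 1, 866 in control mouse 3 and 646 in control mouse 2. At the other end it was 469 in HFD mouse 2, 367 in HFD mouse 3, 359 in HFD mouse 4, 356 in HFD mouse 1 and 352 in control mouse 1. The remaining 6 mice, from the control and treated groups, lay between 493 and 623. The order of the mice by Alas2 was similar, with the same 2 mice at the top and HFD mouse 4 at the bottom. The highest mouse had 3.90 times the summed haemoglobin CPM of the lowest and 5.79 times the Alas2 CPM.

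The spread between mice of a group was larger for these genes than for most genes. The pooled within-group SD of log2 CPM was 0.55 for Hba-a1, 0.56 for Hba-a2, 0.57 for Hbb-bs, 0.56 for Hbb-bt and 0.61 for Alas2, where the median of all genes tested was 0.25. These values lay at the 85.4th to 88.2nd percentile of all genes tested. Among genes within 0.5 log2 CPM of the same level, they lay at the 93.3rd to 95.7th percentile. The spread differed between the groups: the SD in the HFD group was 0.19 for Hba-a1 and 0.37 for Alas2, and it was 0.53 to 0.76 in the other groups over the 5 genes. This difference in spread was not tested.

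Within each mouse, the 5 mRNAs kept nearly constant proportions. The ratio of summed alpha to summed beta FPKM was 0.739 ± 0.0368 (SD, n = 16) and ranged from 0.662 in control mouse 4 to 0.787 in control mouse 2, while the sums themselves differed by several-fold. Hba-a1 made up 87.6% of the alpha counts (86.1% to 88.8% over the mice). Hbb-bt made up 54.5% of the beta counts (52.2% to 60.5%). The highest share of Hbb-bt was in HFD mouse 4, and the other 15 mice had at most 56.6%. There were 67.5 ± 7.26 globin counts per Alas2 count (SD, n = 16), with 60.0 in HFD + metformin mouse 3 and 90.8 in HFD mouse 4.

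The log2 CPM of the 5 genes rose and fell together over the mice. For the 10 pairs of genes, Pearson's r ranged from 0.966 (Hbb-bt with Alas2) to 0.991 (Hbb-bs with Alas2) and Spearman's rho from 0.894 to 0.976 over 16 mice, with a permutation P of 1e-05 for each r, the smallest that 100000 permutations can give, and of at most 3e-05 for rho. After subtracting the group means, r ranged from 0.950 to 0.989 and rho from 0.900 to 0.971 (permutation P at most 0.00012 for r and 0.00061 for rho). Without the 2 mice farthest from the median of the first gene, r ranged from 0.925 to 0.981. These P-values are unadjusted over the 10 pairs, the values of a pair come from the same libraries, and paralogs share reads. Alas2 lies on another chromosome than the globins, and its r with Hbb-bs was 0.989 within groups. The total count of the mRNA table had an r of -0.22 with Hbb-bs (n = 16).

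**Figure D3:**
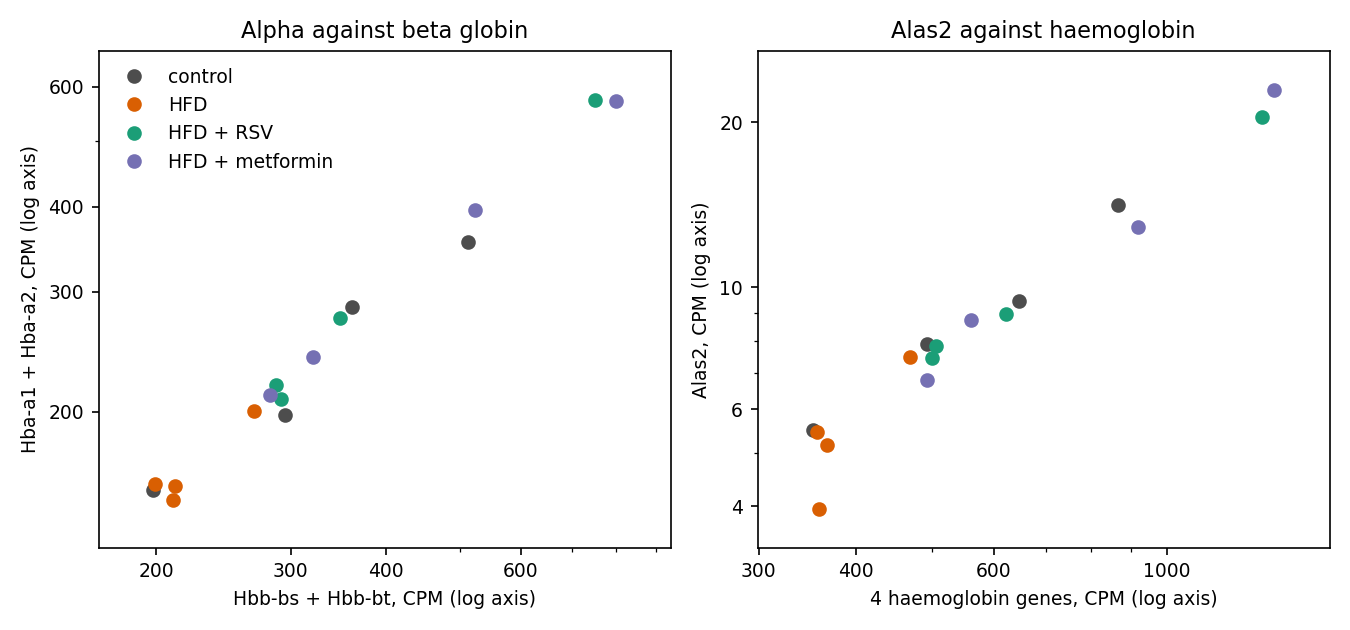
Left, summed alpha globin CPM against summed beta globin CPM, and right, Alas2 CPM against the summed CPM of the 4 haemoglobin genes, with 1 point per mouse, coloured by group, and log axes. The points lie along a line in both panels, with HFD mice and control mouse 1 at the lower left and HFD + RSV mouse 2 and HFD + metformin mouse 3 at the upper right.

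At the level of transcripts, Hba-a1, Hbb-bs and Hbb-bt were almost wholly 1 transcript each, with 98.9% of the Hba-a1 counts on ENSMUST00000093209 and 99.9% of the Hbb-bs counts on ENSMUST00000023934. Hba-a2 was divided between the spliced ENSMUST00000093207 and ENSMUST00000147010, a transcript that keeps an intron, which took 22.5% of its counts. The share of the intron-retaining transcript in mice 1 to 4 was 51.2%, 19.7%, 20.3% and 4.82% in control mice and 53.9%, 27.7%, 41.3% and 47.4% in HFD mice. It was 43.96%, 2.23%, 21.7% and 40.8% in HFD + RSV mice and 1.48%, 5.85%, 19.4% and 25.6% in HFD + metformin mice. The HFD mice were all above the HFD + metformin mice, with 27.7% as the lowest HFD share and 25.6% as the highest HFD + metformin share. They overlapped with the control and HFD + RSV mice. This difference was not tested, and how many of all transcripts separate these groups was not determined. The 494 bases of this transcript and of its counterpart from Hba-a1, ENSMUST00000142555, differ at 1 base, and the counterpart took 1.06% of the Hba-a1 counts, so the assignment of these reads to Hba-a2 is uncertain. Alas2 was divided between ENSMUST00000066337 (54.3% of the counts, 27.2% to 95.9% by mouse) and ENSMUST00000112715 (43.9%). The only lncRNA that overlaps one of the 5 genes, NONMMUT074315.2 at chrX:150568865-150569441 within Alas2, had 2 to 4 counts per mouse.

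Genes of the same biology were read from lists of gene names. Hbq1a and Hbq1b, the theta globins, had at most 2 and 5 counts in a mouse. The embryonic Hba-x and Hbb-y were on the list but were not found by name. Of the other globins, Mb had no called difference and an r of -0.18 with the summed haemoglobin, and Cygb (cytoglobin, of fibroblast-like cells) had 6.28 FPKM with an r of 0.08.

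The remaining enzymes of haem synthesis, which muscle also uses, had no called difference. Of 10 listed genes, 9 were tested and 0 were called in any of the 6 comparisons in edgeR's test, and their median log2FC was -0.01 in HFD versus control mice, -0.05 in HFD + RSV versus HFD mice and -0.03 in HFD + metformin versus HFD mice. The most abundant were Fech (ferrochelatase, which inserts iron into haem) with 36.8 FPKM, Alas1 with 34.1 FPKM and Urod with 21.9 FPKM. Their r with log2 summed haemoglobin CPM over the 16 mice was -0.51 for Fech, 0.60 for Alas1 and -0.50 for Urod. The median over the 9 genes was -0.21, where it was 0.03 over all genes tested.

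Genes of the red cell membrane and cytosol were divided into those that muscle also expresses and those that were near 0. Of 20 listed genes, 18 were found by name and 10 were tested. In HFD versus control mice, 2 of 10 were called and were higher in the HFD group, where 1.32% of all genes were called higher. Ank1 encodes ankyrin 1, which in red cells anchors the spectrin skeleton. Its counts were summed over all its transcripts, so forms of muscle and of red cells were not told apart. Ank1 had a log2FC of 1.04 (SE 0.25) and an adjusted P of 0.0474 in edgeR's test. Bpgm (bisphosphoglycerate mutase) had 0.71 (SE 0.17) and an adjusted P of 0.0474 in the same test. These differences had the opposite sign to the haemoglobin genes, and their mean levels were 37.8 and 27.8 FPKM. Across 28 alternative settings, the adjusted P passed 0.05 in 13 for Ank1 and in 11 for Bpgm, with a log2FC of 0.90 to 1.23 and of 0.54 to 0.83. In the other 5 comparisons 0 of 10 were called. Slc4a1, the anion exchanger of the red cell membrane, had 0.155 FPKM and 4 to 44 counts per mouse, with a log2FC of -0.83 (SE 0.54) in HFD versus control mice, 0.78 (SE 0.55) in HFD + RSV versus HFD mice and 1.48 (SE 0.54) in HFD + metformin versus HFD mice. Epb42 (protein 4.2) had at most 7 counts and Rhag at most 3.

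Of 18 erythroid regulators and genes of late erythroblasts, 17 were found by name and 11 were tested, and 0 were called in any comparison. Gata1 and Klf1, regulators of erythroid precursors, had at most 3 counts per mouse and Trim58 at most 1, whereas Tal1 had 51 to 102, Zfpm1 72 to 196 and Epor (erythropoietin receptor) 1 to 45. The most abundant were Tfrc (transferrin receptor) with 22.05 FPKM, Bnip3l with 19.3 FPKM and Ube2o with 9.71 FPKM, which muscle also expresses. Tfrc had an r of 0.33 with summed haemoglobin, Bnip3l -0.05 and Ube2o -0.68.

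Among 11 genes of haem and haemoglobin clearance and iron storage, 0 were called in any comparison. In HFD versus control mice, 10 of 11 log2FC were negative with a median of -0.34, where 52.4% of all genes tested had a negative log2FC. In HFD + RSV versus HFD mice, 6 of 11 were positive and 5 negative with a median of 0.00061, and in HFD + metformin versus HFD mice 10 of 11 were positive with a median of 0.12, where 51.1% and 53.1% of all genes were positive. The most abundant were Fth1 and Ftl1 (ferritin chains) with 665 and 49.2 FPKM and Lrp1 with 40.2 FPKM. Hmox1, which breaks down haem, had an r of 0.18 with summed haemoglobin, and Cd163, the macrophage receptor for haemoglobin bound to haptoglobin, had 0.18.

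Other blood cells gave few reads, and their summed levels moved with haemoglobin to different degrees. The summed CPM of 13 platelet genes ranged from 9.997 to 12.7 in control mice, 7.53 to 13.3 in HFD mice, 9.70 to 14.4 in HFD + RSV mice and 8.77 to 18.04 in HFD + metformin mice. Its r with Hbb-bs was 0.71 over 16 mice and 0.63 after subtracting the group means, and it was 0.49 without the 2 mice farthest from the median of Hbb-bs. Ppbp (pro-platelet basic protein) had 4 to 73 counts per mouse and an r of 0.86 with summed haemoglobin, whereas Pf4 (platelet factor 4), the most abundant of the list at 8.67 FPKM, had 0.22. Of the other platelet genes, Gp9, Gp5 and Gp6 had a median of at most 2 counts, Gp1bb had a median of 12 counts and Itga2b had a median of 42, with an r of 0.55 over 16 mice and 0.78 within groups. Of the 5 platelet genes tested, 4 had a negative log2FC in HFD versus control mice (median -0.46), where 52.4% of all genes tested did. In HFD + RSV versus HFD mice, 3 had a positive one (median 0.14), where 51.1% of all genes did. In HFD + metformin versus HFD mice, 4 had a positive one (median 0.35), where 53.1% of all genes did. The summed CPM of 9 neutrophil genes ranged from 3.78 to 12.7 over all mice, and its r with Hbb-bs was 0.16. Mmp9 had the most counts of this list (median 111), so the sum and its r rest largely on Mmp9, whereas S100a8 and S100a9 had a median of 4 and 2 counts. Of the 6 monocyte genes, 4 were tested, and the summed CPM of the 6 ranged from 56.3 to 69.7 in control mice, 49.0 to 65.0 in HFD mice, 57.6 to 78.0 in HFD + RSV mice and 56.9 to 97.2 in HFD + metformin mice, mostly from Ace, which endothelial cells also express. Of the B cell list only Ebf1, which other cells also express, was tested, Cd79a had at most 3 counts, and of 7 T and NK cell genes 0 were tested. In these 5 lists, 0 genes were called in any comparison.

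Endothelial cells of the vessels and the muscle fibres were read from lists in the same way. Of 10 endothelial genes, Egfl7 (46.65 FPKM), Cdh5 and Pecam1 were the most abundant, and 0 of 10 were called. In HFD versus control mice, 8 had a negative log2FC (median -0.30), where 52.4% of all genes tested did. In HFD + RSV versus HFD mice, 9 had a positive one (median 0.18), where 51.1% of all genes did. In HFD + metformin versus HFD mice, 10 had a positive one (median 0.24), where 53.1% of all genes did. The summed CPM of the endothelial genes ranged from 556 to 675 in control mice and 490 to 566 in HFD mice. It ranged from 471 to 655 in HFD + RSV mice and 497 to 717 in HFD + metformin mice. The r of this sum with Hbb-bs was 0.39 over 16 mice and 0.23 within groups. The summed CPM of 14 skeletal muscle genes had an r of -0.71 with Hbb-bs, -0.75 within groups and -0.63 without the 2 farthest mice. This sum ranged from 190900 to 363200 over the mice. CPM are scaled shares of a library, so a sum this large is not independent of the CPM of other genes. Ttn (titin) had the most counts of the list (median 3947090), and its own r with summed haemoglobin was -0.72. In HFD versus control mice, 10 of the 14 had a positive log2FC (median 0.37), where 47.6% of all genes tested did. In HFD + RSV versus HFD mice, 9 had a negative one (median -0.09), where 48.9% of all genes did. In HFD + metformin versus HFD mice, 11 had a negative one (median -0.20), where 46.9% did, and 0 were called. The part of the vessels and fibres in the haemoglobin levels was not tested, and these sums were related to Hbb-bs after values of the data were known. In the retina list, 8 of 11 genes were found by name, 4 were tested and 0 were called.

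**Figure D4:**
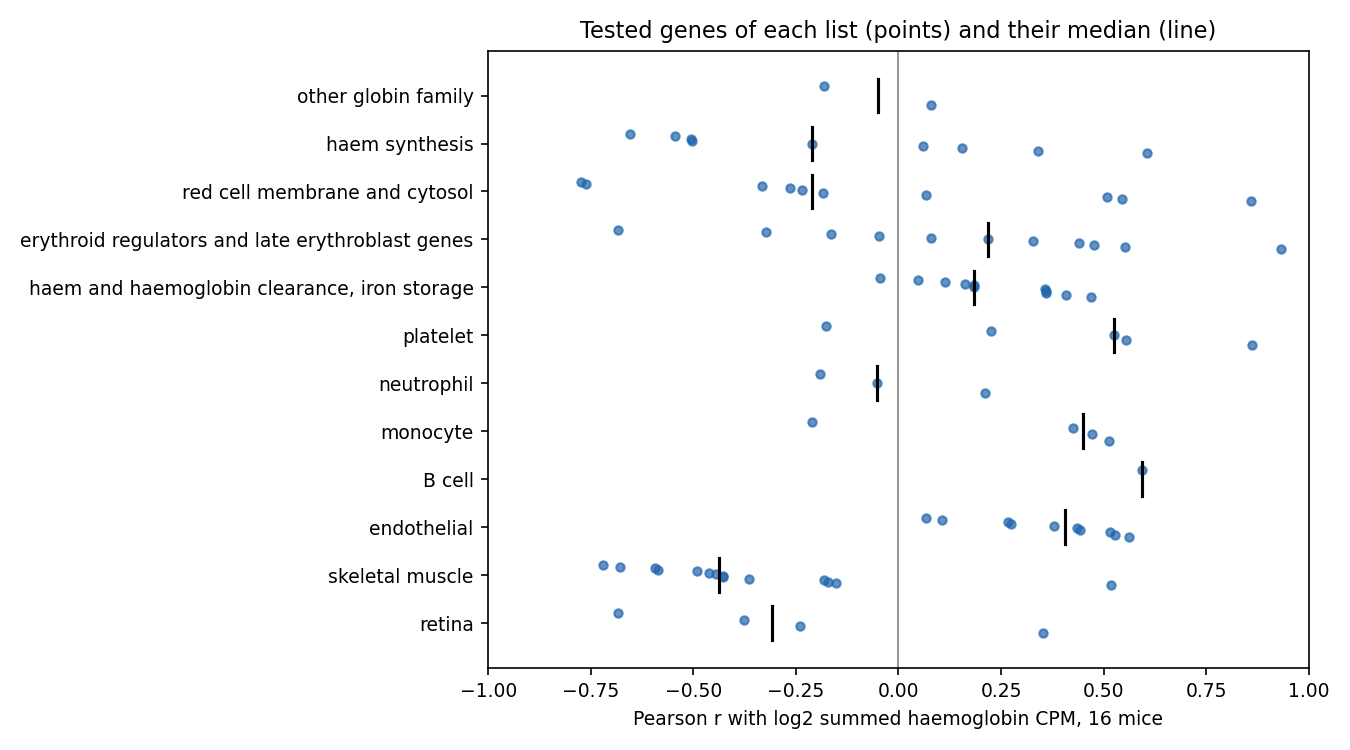
Pearson's r between the log2 CPM of each tested gene of a list (points, with the median as a line) and log2 of the summed haemoglobin CPM over 16 mice. Ppbp (0.86) and Slc4a1 (0.86) lie at the right end of their lists, and the skeletal muscle genes lie mostly below 0 with a median of -0.44.

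The genes whose levels were most like summed haemoglobin over the 16 mice included few red cell genes. Among those with the highest Pearson r were Fam46c (0.956), Gpr137b (0.870), Arhgef10 (0.869), Ppbp (0.862), Hspa12a (0.861), Ppip5k2 (0.860), Slc4a1 (0.859), Rabif (0.845) and Gng2 (0.843). Fam46c is the older symbol of Tent5c, a poly(A) polymerase that was on the erythroblast list under its current name, and it had 121 to 491 counts per mouse. After subtracting the group means, the 5 highest were Fam46c (0.958), Secisbp2l (0.929), Mbp (0.927), Gpr137b (0.926) and Megf9 (0.926). Mbp encodes myelin basic protein. These values are among the highest of 15359 genes, Ppbp and Slc4a1 are also on the lists above, and in lowly counted genes such as Slc4a1 and Ppbp the order also depends on counting error. The lowest r among the listed genes were -0.77 for Xk and -0.76 for Sptb, both named for red cells and both expressed here at 2.67 and 49.1 FPKM.

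**Figure D5:**
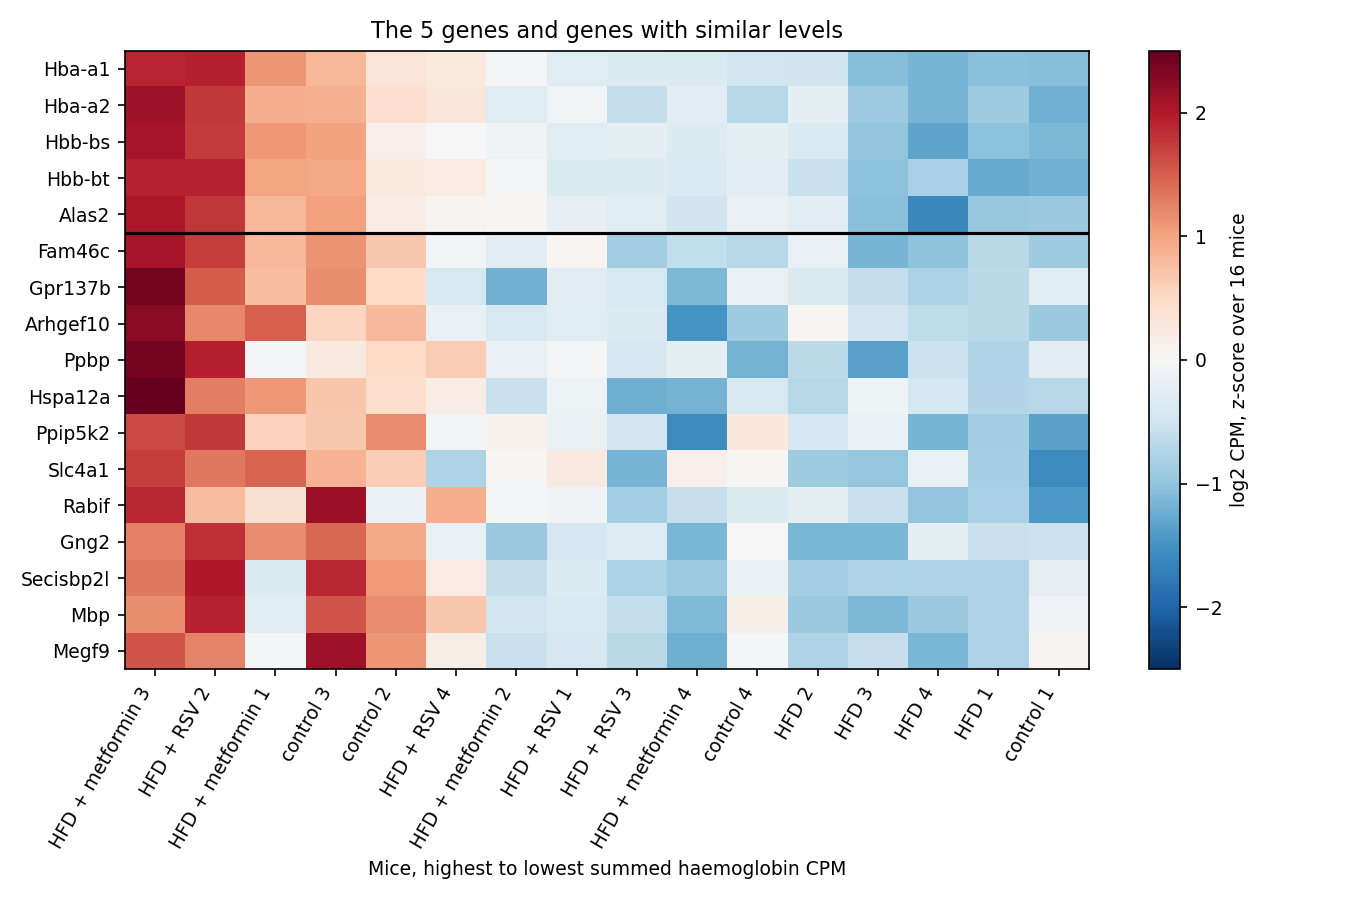
log2 CPM as z-scores over 16 mice (colour) of the 5 genes, above the line, and of 12 genes with similar levels, below it, with mice ordered from the highest to the lowest summed haemoglobin CPM. The 5 genes change colour together from left to right, and most of the other genes are high in HFD + metformin mouse 3, HFD + RSV mouse 2 and control mouse 3 and differ more among the remaining mice, with r from 0.766 for Megf9 to 0.956 for Fam46c.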

How the data were processed

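RNA from the skeletal muscle of 16 mice was sequenced as 1 library per mouse. The authors deposited expected counts and FPKM per transcript and mouse in an mRNA and an lncRNA table; fastp and HISAT2 are named in the submitters' processing notes, and StringTie in the methods. Sums over transcripts of a gene name were taken here, after joining 4 transcripts split over 2 lines. The counts are whole numbers, and the deposited FPKM were used for levels between genes. Counts were filtered (filterByExpr: 10 counts as the minimum, 15 in total), scaled by TMM and fitted with edgeR 4.0.16 in R 4.3.3 (quasi-likelihood, robust) to all 16 mice. DESeq2 1.42.0 and limma 3.58.1 on log2(FPKM + 1) were alternatives. The fit was tested on simulated data. log2 CPM used a prior count of 2, and a standard error is the log2FC divided by the square root of F. Genes named are the 5 genes, the genes called or with the highest FPKM in each list, and those with the highest r; further list genes were named after their values were seen, as were the examples near 0. The 5 genes and the lists were chosen with earlier results of these data known. Proteins were not analysed here, and some genes that the rule names are not reported here. Groups were taken from the labels, and replicate numbers only name mice.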

Additional observations from a re-analysis of the deposited data

Results flagged for a closer look

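In each group of 4 mice, 10 quantities were searched for a mouse whose gap to its nearest neighbour, divided by the range of the group, was above Dixon's critical value for 4 samples, and 4 of 40 groups had one, where chance gives about 1 in 20. HFD mouse 2 stood above the other HFD mice in Hba-a1 (ratio 0.845) and in the summed haemoglobin CPM (ratio 0.887), which was 469 against 356 to 367 in the others. HFD + RSV mouse 2 stood above its group in Hbb-bs (ratio 0.847), with a CPM of 330 against 131 to 151. Control mouse 2 stood above its group in the share of Hbb-bt among the beta counts (ratio 0.833), which was 55.7% against 53.9% to 54.2%. These quantities share counts, so the 4 findings are not independent of each other.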

How the results depend on the processing

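Each log2FC was recomputed under 29 alternatives, 16 of which left out 1 mouse; fits of the 8 mice of a pair or of the 12 mice without metformin apply only to the comparisons among those mice. The number of the 5 genes called in each comparison stayed at 0 under all of them except the call rule of an unadjusted P below 0.05 with an absolute log2FC above 1, which called 1 gene in the HFD + RSV group and 4 genes in HFD + metformin versus HFD mice, because it does not adjust P. With 1 mouse left out at a time, 10 of the log2FC changed sign in at least 1 setting. In HFD + RSV versus control mice, they ranged from -0.0873 to 0.59 for Hba-a1, -0.0632 to 0.551 for Hba-a2, -0.155 to 0.54 for Hbb-bs, -0.137 to 0.569 for Hbb-bt and -0.202 to 0.543 for Alas2. In HFD + metformin versus HFD + RSV mice, they ranged from -0.173 to 0.596 for Hba-a1, -0.211 to 0.559 for Hba-a2, -0.118 to 0.675 for Hbb-bs, -0.199 to 0.591 for Hbb-bt and -0.245 to 0.655 for Alas2, and the sign also turned for Hba-a1 and Hbb-bt without HFD + RSV mouse 1 or 3, to -0.00190 and -0.00789 for Hba-a1 and -0.00520 and -0.00429 for Hbb-bt. In the other comparisons every log2FC kept its sign under every alternative run. The number of all genes called changed more than the members did: in HFD versus control mice it was 374, and between 158 (no filter on low counts) and 1616 (12 mice without metformin) under the alternatives that left out no single mouse. With 1 mouse left out, it was as low as 16 (without control mouse 2), 29 (without control mouse 3) and 31 (without HFD mouse 1) and as high as 1588 (without HFD + metformin mouse 3). With an adjusted P, it was 0 in HFD + RSV versus HFD mice and at most 8 (DESeq2). In HFD + metformin versus HFD mice it was 2 with an adjusted P and at most 31 (DESeq2). The call rule that does not adjust P called 166 and 271 of all genes in these comparisons. No paired analysis was possible because the labels give no replicate numbers: the leading number of the identifiers is not explained, and no 2 groups have more than 1 such number in common. Hba-a1 with Hba-a2 and Hbb-bs with Hbb-bt were also summed into 1 row each, which called 0 of them, and the lncRNA table gives no strand, so the overlapping lncRNA was added without that condition. At these depths the globins had at least 328 counts per mouse and their precision was set by the spread between mice, whereas genes such as Slc4a1 and Klf1 had too few for small differences to be detectable.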
